A study of Mus musculus with 11 samples.

Results

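The 6 transcripts described here were followed in resting and stimulated mouse macrophages: the cytokine gene Il10, the genes for both chains of its receptor (Il10ra and Il10rb), and Tnfsf14, Sphk1 and Hbegf, which are used as markers of macrophages that make much interleukin-10. All 6 were found among the 18755 genes of the array, and each had 1 probe set annotated with that symbol alone. The cells were primary macrophages grown for 1 week from the bone marrow of wild type C57Bl/6 mice with macrophage colony-stimulating factor at 5 ng/ml, replated, and used 24 hours later. The 4 untreated arrays had no stimulus, the 3 LPS arrays came from cells given 100 ng/ml lipopolysaccharide (LPS, a bacterial wall component that activates macrophages through Toll-like receptor signalling) for 1 hour, and the 4 LPS plus PGE arrays came from cells given the same dose of LPS with 10 µM prostaglandin E (PGE) for 1 hour. Which prostaglandin E was used, and whether replicates were separate mice or cultures, is not stated, so p-values measure only the spread between these arrays. No group received PGE alone, so PGE is described here only on top of LPS.

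Interleukin-10 is a cytokine that restrains inflammatory gene expression. It binds a receptor of a ligand-specific chain (Il10ra) and a chain shared with related cytokines (Il10rb), which signal through the kinases Jak1 and Tyk2 to the transcription factor Stat3. Prostaglandin E raises cyclic AMP through some of its receptors, and cyclic AMP signalling through CREB-family factors is known to raise Il10 transcription in activated macrophages. Tnfsf14 encodes LIGHT, a TNF-family ligand of the receptors Tnfrsf14 and Ltbr. Sphk1 encodes a kinase that makes the lipid messenger sphingosine-1-phosphate. Hbegf encodes a membrane-anchored growth factor of the EGF family that is released by shedding. Regulatory macrophages are described as making much interleukin-10 and little interleukin-12.

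Levels are given on the log2 scale of the deposited values, where a difference of 1 is a 2-fold change. Each difference is given ± SE from a limma fit to the 11 arrays together, p-values were adjusted over 18755 genes by Benjamini-Hochberg, and a gene passed at an adjusted p under 0.05. Over all genes, r between arrays was 0.996 to 0.998 within a group and 0.980 to 0.993 between groups. All 11 measured macrophage markers lay above the median gene in every array. The lists of other cell types had most members below the median (9 of 11 neutrophil, 6 of 8 B cell, 9 of 10 T and NK cell, 7 of 10 mast cell and basophil, 4 of 5 erythroid and 10 of 12 stromal markers), while dendritic cell markers had 6 of 12 below and 5 of 12 above it. These are measures of bulk RNA, in which fewer cells of a type and less RNA per cell cannot be told apart, and precision is limited by how many arrays there are.

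Sequences upstream of the start sites are shown because cyclic AMP and LPS signalling end on known DNA motifs. The genes shown are those with a promoter entry, whatever their change. RefSeq promoter entries on GRCm38.p6 were matched for 2 of the 6 genes, Tnfsf14 (1 start site) and Sphk1 (5 start sites); Il10, Il10ra, Il10rb and Hbegf had no entry. The 250 bases before each start were searched on both strands for the AP-1 site TGANTCA, the full cyclic AMP response element TGACGTCA, its half-site TGACG (which the full element contains), the C/EBP site TTGCNNAA and the NF-kB site. The run for Tnfsf14 is the whole window, chr17:57194182-57194431 on the minus strand, and those for Sphk1 are 30-base stretches on the plus strand at chr11:116531775-116531804, chr11:116531684-116531713 and chr11:116531861-116531890. Capitals mark the motif.
Tnfsf14, AP-1 site: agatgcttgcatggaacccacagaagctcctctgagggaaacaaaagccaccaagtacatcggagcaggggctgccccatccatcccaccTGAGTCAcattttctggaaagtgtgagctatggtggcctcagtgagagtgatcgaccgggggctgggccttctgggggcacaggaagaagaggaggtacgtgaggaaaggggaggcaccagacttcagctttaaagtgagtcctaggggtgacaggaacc
Sphk1, AP-1 site: tgagcgtgtcgcTGAGTCAccttctcggaa
Sphk1, upstream half-site: cgggggtgggtgaTGACGcccttgctccct
Sphk1, downstream half-site: gcatatattgcagTGACGcgtgcggaaccg

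The same 7 letters of an AP-1 site, TGAGTCA, stood before both genes. In Tnfsf14 the motif began at position -160 from the start, and in Sphk1 at -50 from the second listed start, which is -124 from the third. Of the 32851 promoter windows of the same length, 6.75% held an AP-1 site. The half-site was found at 2 places before Sphk1 and at none before Tnfsf14, against 17.8% of windows. The first Sphk1 window held 1 NF-kB site (7.25% of windows). Neither the full response element (1.55% of windows) nor the C/EBP site (9.56% of windows) was found in the windows of either gene. Each share is for a single window, while Sphk1 had 5 windows and Tnfsf14 had 1, so the shares understate how often a gene like Sphk1 would hold a match. A match is a description of the letters and not evidence that a factor binds there.

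The first comparison asked what an hour of LPS did to these transcripts. Il10 rose about 41-fold, Hbegf and Tnfsf14 rose 2 to 3-fold, and Il10ra rose by less than 2-fold. Sphk1 and Il10rb did not pass. In all, 4 of the 6 genes rose and 0 fell, where 6.55% of all genes rose and 6.69% fell. The arrays of the 2 groups did not overlap for the same 4 genes, as for 10.5% of all genes in the upward direction. The median change of the 6 genes was 0.93, against -0.015 for all genes. Sphk1 passed as well in some alternative analyses, which made 5 rises, and Il10rb passed as lower with a trended and robust variance.

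Il10 had the largest change of the 6 genes. Untreated arrays read 4.55, 4.29, 4.88 and 4.87, LPS arrays 10.17, 10.04 and 9.81, and LPS plus PGE arrays 11.98, 11.84, 11.84 and 11.86. The 3 groups stood in separate bands with no overlap, and the smallest gap between untreated and LPS arrays was 4.93. The mean went from 4.65 ± 0.28 (SD, n = 4) through 10.00 ± 0.18 (SD, n = 3) to 11.88 ± 0.07 (SD, n = 4). LPS raised Il10 by 5.36 ± 0.14 (41.0-fold, limma adjusted p = 5.32e-11). By size of rise this ranked 12 among the 18755 genes. The deposited values carry no detection call, so whether the untreated level exceeded background was not tested.

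Under LPS plus PGE, Il10 stood 7.23 ± 0.13 above untreated (151-fold, limma adjusted p = 1.06e-12), which ranked 4 of 18755. Against LPS alone the added PGE raised it by 1.88 ± 0.14 (3.67-fold, 95% interval 2.99 to 4.50-fold, limma adjusted p = 4.15e-06), rank 32. Every LPS plus PGE array exceeded every LPS array, by at least 1.67. The rise held in each alternative analysis, from 1.78 to 2.03.

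**Figure D1:**
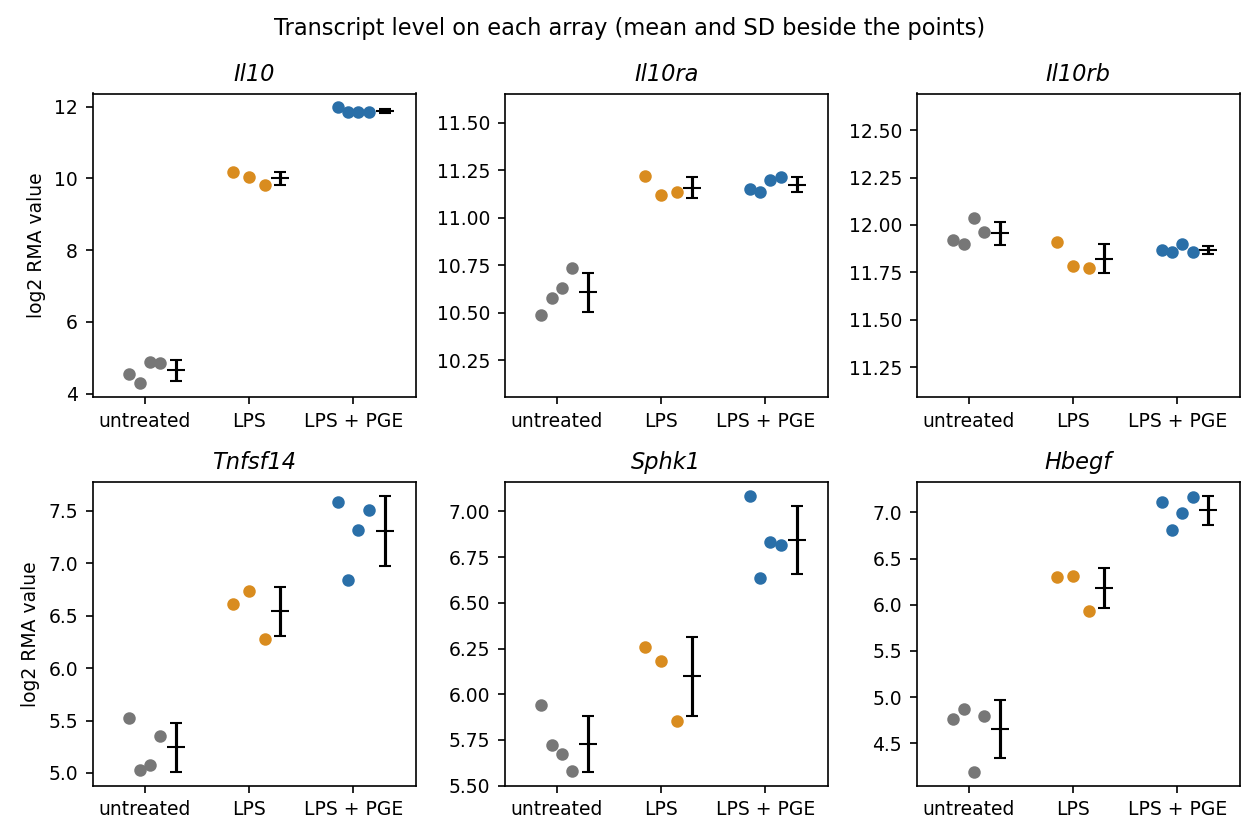
Log2 RMA value of each gene (vertical axis, its own range in each panel) on each array, by group: 4 untreated (grey), 3 LPS (orange) and 4 LPS plus PGE arrays (blue), with the group mean and SD in black beside the points. Il10, Tnfsf14 and Hbegf form 3 separate levels, Il10ra is at about the same level in both treated groups (11.16 and 11.17), and Il10rb stays between 11.78 and 12.04.

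The receptor genes differed from the cytokine gene. Il10ra, the ligand-specific chain, read 10.49, 10.58, 10.63 and 10.73 in untreated arrays, 11.22, 11.12 and 11.14 in LPS arrays, and 11.15, 11.14, 11.20 and 11.22 in LPS plus PGE arrays. All treated arrays were above all untreated arrays, and the 2 treated groups overlapped. Il10ra rose by 0.55 ± 0.07 with LPS (1.47-fold, limma adjusted p = 0.000103) and by 0.57 ± 0.06 with LPS plus PGE (1.48-fold, limma adjusted p = 2.31e-05). The difference between LPS plus PGE and LPS was 0.02 ± 0.07 (95% interval -0.13 to 0.16, limma adjusted p = 0.879). In this fit, a change of more than about 1.12-fold up or 0.915-fold down lay outside the interval. Over the 21 alternative analyses the difference went from -0.012 to 0.17, past the upper end of the interval, and passed in none (lowest limma adjusted p = 0.0873).

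Il10rb, the shared chain, read 11.92, 11.90, 12.04 and 11.96 in untreated arrays, 11.91, 11.78 and 11.78 in LPS arrays, and 11.87, 11.86, 11.90 and 11.86 in LPS plus PGE arrays. LPS replicate 1 lay within the untreated range and the other LPS arrays below it. No comparison passed: -0.13 ± 0.06 for LPS against untreated (limma adjusted p = 0.177), -0.09 ± 0.05 for LPS plus PGE against untreated (adjusted p = 0.239) and 0.05 ± 0.06 for LPS plus PGE against LPS (adjusted p = 0.59). With a trended and robust variance the first difference had an adjusted p of 0.0404. With array medians made equal, which moved the median of all genes to 0.15 in the last comparison, Il10rb stood 0.20 above LPS (adjusted p = 0.0358) and 0.04 above untreated.

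Hbegf read 4.76, 4.87, 4.19 and 4.79 in untreated arrays, 6.30, 6.31 and 5.93 in LPS arrays, and 7.11, 6.81, 6.99 and 7.17 in LPS plus PGE arrays. The groups did not overlap, and untreated replicate 3 lay well below the other untreated arrays. LPS raised Hbegf by 1.53 ± 0.16 (2.88-fold, limma adjusted p = 3.16e-05), and without untreated replicate 3 the rise was 1.37. LPS plus PGE raised it by 2.37 ± 0.15 (5.16-fold, limma adjusted p = 1.53e-07). The step from LPS to LPS plus PGE was 0.84 ± 0.16 (1.79-fold, 95% interval 1.41 to 2.28-fold, limma adjusted p = 0.0039).

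Tnfsf14 read 5.52, 5.03, 5.07 and 5.35 in untreated arrays, 6.62, 6.73 and 6.28 in LPS arrays, and 7.58, 6.84, 7.31 and 7.51 in LPS plus PGE arrays. The groups did not overlap, although LPS plus PGE replicate 2 exceeded LPS replicate 2 by only 0.11. Tnfsf14 rose by 1.30 ± 0.18 with LPS (2.46-fold, limma adjusted p = 0.000377) and by 2.07 ± 0.17 with LPS plus PGE (4.19-fold, limma adjusted p = 1.84e-06). PGE added 0.77 ± 0.18 (1.70-fold, 95% interval 1.30 to 2.24-fold, limma adjusted p = 0.0114). Without LPS replicate 3, the lowest of the LPS arrays, that step was 0.64 and no longer passed (limma adjusted p = 0.0511).

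Sphk1 read 5.94, 5.72, 5.67 and 5.58 in untreated arrays, 6.26, 6.18 and 5.85 in LPS arrays, and 7.09, 6.64, 6.83 and 6.82 in LPS plus PGE arrays. LPS replicate 3 fell within the untreated range, while all LPS plus PGE arrays exceeded all others. The difference of LPS from untreated was 0.37 ± 0.12 (95% interval 0.097 to 0.64, limma adjusted p = 0.075). It passed without LPS replicate 3 (0.49, adjusted p = 0.0263), without untreated replicate 1 (0.44, adjusted p = 0.045), with replicate number as a block (0.34, adjusted p = 0.0484) and with genes below the median level left out (adjusted p = 0.0331). With PGE added, Sphk1 stood 1.11 ± 0.12 above untreated (2.17-fold, limma adjusted p = 1.64e-05) and 0.75 ± 0.12 above LPS (1.68-fold, 95% interval 1.39 to 2.02-fold, limma adjusted p = 0.00201).

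The second comparison, LPS plus PGE against untreated, thus held 5 rises and 0 falls among the 6 genes, where 13.8% of all genes rose and 17.9% fell, and the arrays of those 5 did not overlap, as for 13.7% of all genes upward. The median change was 1.59, against 0.017 for all genes. The third, which asked what PGE added to LPS, held 4 rises (Il10, Hbegf, Tnfsf14 and Sphk1) and 0 falls, where 11.9% of all genes rose and 12.9% fell. The arrays of these 4 did not overlap (15.5% of all genes upward), and the median change was 0.76, against -0.0045. The 4 rises became 3 without LPS replicate 3 and 5 with equal array medians. The 3 comparisons share arrays and are not independent of each other. The intervals of the PGE step overlapped among Hbegf, Tnfsf14 and Sphk1, and that of Il10 lay above all of them; the difference between genes was not tested.

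**Figure D2:**
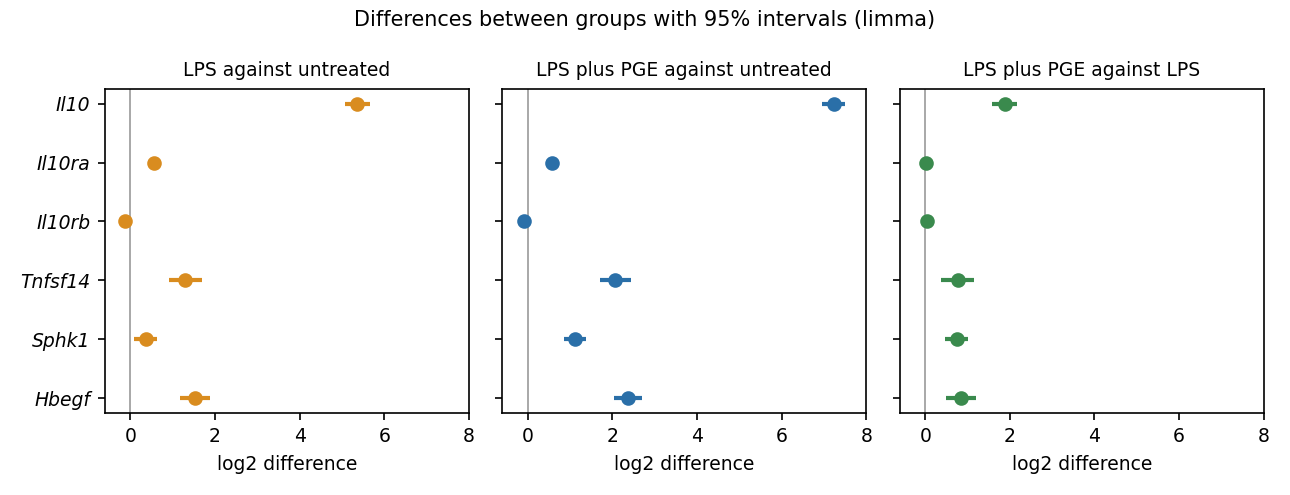
Log2 difference (horizontal axis) of each gene in the 3 comparisons, with points for the limma estimates and bars for 95% intervals, over 4 untreated, 3 LPS and 4 LPS plus PGE arrays. Il10 lies farthest from 0 in each panel (5.36, 7.23 and 1.88), and the receptor genes lie near 0 in the last panel.

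The deposited values shift with the level of a gene between groups. The lower quartile of the genes lay at 3.82 to 3.90 in untreated arrays, 3.80 to 3.87 with LPS and 4.00 to 4.05 with LPS plus PGE, while the medians lay at 5.89 to 5.98, 5.89 to 6.01 and 5.79 to 5.82. After cyclic loess normalization, which evens out such a shift, the PGE step was 2.01 for Il10, 0.88 for Hbegf, 0.85 for Tnfsf14 and 0.82 for Sphk1, and all 4 passed (limma adjusted p from 3.44e-06 to 0.0128). After quantile normalization the steps were 1.90, 1.02, 0.93 and 0.93 in the same order.

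Genes with the most similar course over the 11 arrays were sought among those whose group means spanned at least 1, by Pearson correlation. The points share 3 groups and so reflect mostly the group levels. For Il10 they were Irs2, an insulin receptor substrate, Phlda1, the RNA-degrading enzyme gene Zc3h12a, the AP-1 gene Junb and the urokinase receptor gene Plaur (r from 0.997 to 0.998). For Hbegf they were Dnajb2, the plasminogen activator gene Plat, Smim3, Sh3d21 and Sh2b2 (0.987 to 0.993). For Tnfsf14 they were Mmd, the calcium channel gene Orai2, AI504432, Tmem39a and the AP-1 family gene Jdp2 (0.989 to 0.993). For Sphk1 they were D16Ertd472e, the metallothionein gene Mt2, Gprc5a, the receptor gene Trem1 and the podoplanin gene Pdpn (0.970 to 0.976). Il10ra went with Sdc4, Tnfaip2, the chemokine gene Cxcl1, the mRNA decay gene Zfp36 and Sod2 (0.982 to 0.985). For Il10rb the 5 highest values, for Ccdc166, Mir350, Zfp873, Stat2 and Tsc22d3, were lower, at 0.746 to 0.782. Il10rb itself passed in no comparison, and genes with group means spanning less than 1 were not searched. Whether a gene of similarly flat course goes with it was thus not tested.

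Among the other IL-10 family cytokine and receptor genes, Il20 and Ifnl2 rose with PGE. Of 9 measured beside the members, 1 rose with LPS (Il20rb, 0.47 ± 0.12, limma adjusted p = 0.0182, but 0.0767 without LPS replicate 3), 1 rose with LPS plus PGE against untreated and 2 rose with PGE against LPS, and 0 fell in any of the 3. Over all genes 6.55%, 13.8% and 11.9% rose in these comparisons. The 1 rise against untreated became 3 after quantile normalization and 4 with equal array medians. It became 2 after cyclic loess normalization, with array weights, with the 2 groups fitted alone or with the replicate block. Leaving out untreated replicate 3, LPS replicate 2 or 3, or LPS plus PGE replicate 4 also gave 2. Il20, a related cytokine gene, stood at 3.49 in untreated arrays, 3.31 with LPS and 4.32 with LPS plus PGE, a rise of 1.01 ± 0.13 over LPS (limma adjusted p = 0.000411). These levels are low. The lower quartile of all genes was 3.82 to 3.90 in untreated arrays, 3.80 to 3.87 with LPS and 4.00 to 4.05 with LPS plus PGE. Whether Il20 exceeded background was not tested. The interferon lambda gene Ifnl2 rose by 0.93 ± 0.23 over LPS (limma adjusted p = 0.0149), and by 0.56 (adjusted p = 0.0184) without LPS replicate 3, which read 4.30 where the other LPS arrays read 5.30 and 5.55. The median change of the 9 genes was 0.06, 0.21 and 0.06 in the 3 comparisons, against -0.015, 0.017 and -0.0045 for all genes.

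Among genes listed for IL-10 receptor signalling, the signalling core changed little and the genes listed as targets moved widely. Whether interleukin-10 had a part in any of these changes was not tested. Jak1 (11.28, 11.31 and 11.27 in untreated, LPS and LPS plus PGE arrays) and Stat3 (10.54, 10.53 and 10.53) did not pass in any comparison. Tyk2 fell by 0.30 with PGE against LPS (SE 0.07, limma adjusted p = 0.00932), a call lost with equal array medians (adjusted p = 0.118) or cyclic loess (0.0672). Of 17 genes of receptor signalling and its targets, 9 rose and 0 fell with LPS, where 13.2% of all genes passed in either direction. With LPS plus PGE against untreated 10 rose and 2 fell (31.7% of all genes passed), and with PGE against LPS 5 rose and 3 fell (24.7% passed). With equal array medians the 2 falls became 0, and against LPS there were 7 rises and 1 fall. Cyclic loess normalization left 1 of the 2 falls. The median change of these genes was 0.40, 0.44 and 0.0048.

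Among these targets, the feedback inhibitor Socs3 rose by 5.90 ± 0.12 with LPS and was -0.18 ± 0.12 from LPS with PGE (limma adjusted p = 0.307). The NF-kB cofactor Bcl3 did the same at a smaller size (1.35 ± 0.09, then 0.04 ± 0.09). Nfil3, a transcription factor induced by interleukin-10, read 6.87, 7.14 and 7.08 in LPS arrays and 10.94, 10.86, 10.83 and 10.72 in LPS plus PGE arrays. It rose by 3.81 ± 0.09 with PGE (limma adjusted p = 3.36e-10), far beyond the spread of either group. Its smaller rise with LPS alone (0.40 ± 0.09, limma adjusted p = 0.0131) was lost without LPS replicate 2 (0.34, adjusted p = 0.0593). Ddit4, a growth-signal inhibitor gene, rose by 3.07 ± 0.16 with PGE, and Il1rn, the interleukin-1 receptor antagonist gene, by 1.57 ± 0.12 (limma adjusted p = 3.12e-07 and 7.3e-06). Etv3, a repressor gene, rose with LPS (1.19 ± 0.05) and fell by 0.76 with PGE (SE 0.05, limma adjusted p = 4.07e-06).

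Of 24 genes listed for Il10 transcription and its signalling inputs, 9 rose and 2 fell with LPS (6.55% and 6.69% of all genes), 13 rose and 3 fell with LPS plus PGE against untreated (13.8% and 17.9%), and 7 rose and 6 fell with PGE against LPS (11.9% and 12.9%). The 3 falls became 1 with equal array medians or cyclic loess normalization. The 6 falls became 2 with quantile or cyclic loess normalization or equal array medians, 2 without LPS replicate 3 and 3 without LPS plus PGE replicate 1. Their median change was 0.17, 0.27 and -0.07. Crem, which encodes activator and repressor forms of a CREB-family factor, was 0.00 ± 0.09 from untreated with LPS and rose by 1.48 ± 0.09 with PGE (limma adjusted p = 1.51e-06). Sik1, a kinase that restrains CREB coactivators, fell with LPS (-0.64 ± 0.09) and rose by 2.26 ± 0.09 with PGE (limma adjusted p = 2.69e-08). Creb1 itself differed by 0.08 ± 0.06 between LPS plus PGE and LPS (limma adjusted p = 0.337), and by 0.24 with equal array medians (adjusted p = 0.0133). Against untreated, Creb1 rose with LPS plus PGE (0.20, limma adjusted p = 0.0167), a call kept in all 21 alternatives. Cebpb rose in both steps (1.51 ± 0.07 with LPS and a further 0.64 ± 0.07 with PGE, limma adjusted p = 1.02e-08 and 9.68e-05). Prdm1, a repressor gene, rose by 2.31 ± 0.07 with LPS and fell by 0.46 with PGE (SE 0.07, limma adjusted p = 0.00151). Maf, an activator of Il10, fell with LPS plus PGE against untreated (-0.38 ± 0.07, limma adjusted p = 0.00245); its fall with LPS alone (-0.27 ± 0.08, adjusted p = 0.0447) was lost in 12 of 21 alternatives.

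**Figure D3:**
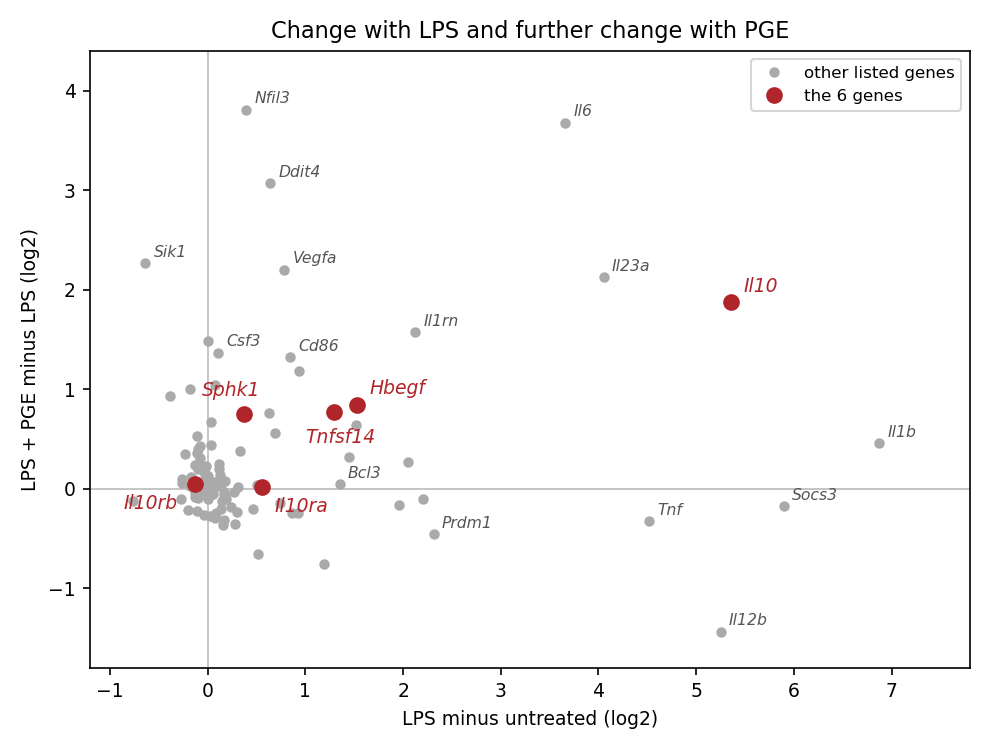
Change with LPS (horizontal axis, log2) and further change with PGE (vertical axis, log2) for the 6 genes (red) and the other listed genes (grey, some named). Both axes use the LPS arrays, so the 2 values of a gene are not independent; Il10 lies at 5.36 and 1.88, Il12b at 5.25 and -1.44, and Nfil3 at 0.40 and 3.81.

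The receptor genes of LIGHT changed little beside their ligand. Tnfrsf14 stood at 9.47, 9.42 and 9.37 in untreated, LPS and LPS plus PGE arrays and passed in no comparison (limma adjusted p from 0.392 to 0.78). Ltbr stood at 8.68, 8.57 and 8.50, and its fall with LPS plus PGE against untreated (-0.18 ± 0.06, limma adjusted p = 0.0332) was lost in 9 of 21 alternatives, among them leaving out untreated replicate 2, 3 or 4 or LPS plus PGE replicate 1, 3 or 4. Of the 6 genes listed beside Tnfsf14, 0 passed with LPS (13.2% of all genes), 1 rose and 1 fell with LPS plus PGE against untreated (31.7% passed), and 1 rose with PGE against LPS (24.7% passed). The rise against untreated was that of the lymphotoxin gene Lta (0.27, limma adjusted p = 0.0378) and was lost in 9 of 19 alternatives, among them leaving out untreated replicate 1, 3 or 4 or LPS plus PGE replicate 1, 2 or 3. Btla, an immune receptor gene, rose with PGE against LPS. That rise was lost after quantile or cyclic loess normalization, with array weights or the replicate block, and without untreated replicate 2, LPS replicate 1 or 3, or LPS plus PGE replicate 1, 3 or 4 (limma adjusted p from 0.0527 to 0.259).

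In the sphingosine-1-phosphate pathway, the receptor genes S1pr1 and S1pr4 rose with PGE beside the kinase, and S1pr2 and S1pr5 fell with LPS. S1pr1 read 9.15, 8.91 and 9.13 in LPS arrays and 9.92, 9.52, 9.67 and 9.82 in LPS plus PGE arrays, with no overlap, a rise of 0.67 ± 0.10 (limma adjusted p = 0.0012). S1pr2 fell with LPS (-0.77 ± 0.12, limma adjusted p = 0.00107) and was -0.13 ± 0.12 from LPS with PGE (adjusted p = 0.47). The rise of S1pr4 (0.43, limma adjusted p = 0.0288) was lost after quantile or cyclic loess normalization and without LPS replicate 3 or LPS plus PGE replicate 1 or 2, and the fall of S1pr5 with LPS (-0.26, adjusted p = 0.0439) was lost in 13 of 20 alternatives. Sphk2, the other sphingosine kinase, fell under LPS plus PGE against untreated (-0.42 ± 0.08, limma adjusted p = 0.00201), where Sphk1 rose. The transporter gene Spns2 rose under LPS plus PGE against untreated (0.47 ± 0.11, limma adjusted p = 0.00568), a call kept in all 20 alternatives. Its rise over LPS (0.44 ± 0.11, adjusted p = 0.0183) was lost after quantile or cyclic loess normalization and without LPS replicate 3. The phosphatase gene Sgpp1 fell with LPS (-0.26 ± 0.06, adjusted p = 0.0146), a call lost without LPS replicate 2. The lyase gene Sgpl1, which breaks the messenger down, passed in no comparison. Of 17 genes listed beside Sphk1, 1 rose and 3 fell with LPS (6.55% and 6.69% of all genes), 5 rose and 6 fell with LPS plus PGE against untreated (13.8% and 17.9%), and 5 rose and 0 fell with PGE against LPS (11.9% and 12.9%). The 1 rise with LPS, of the lipid phosphatase gene Plpp3 (0.50, limma adjusted p = 0.0422), was lost in 14 of 21 alternatives and was 0.29 without LPS replicate 2. Against untreated, the 6 falls became 2 with equal array medians and 3 after cyclic loess normalization or without untreated replicate 1, 2 or 3 or LPS plus PGE replicate 3 or 4. The 5 rises there became 3 after quantile or cyclic loess normalization, or when LPS plus PGE replicate 1 or 3 or untreated replicate 1 was left out. Against LPS, the 5 rises became 1 after quantile or cyclic loess normalization, 2 without LPS replicate 3 and 3 without LPS plus PGE replicate 1 or 3.

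Among the EGF-family genes, the ligand genes Ereg, Nrg1, Tgfa and Nrg2 each rose in at least 1 comparison. Ereg, the epiregulin gene, read 4.48, 4.17, 4.24 and 4.33 in untreated arrays, 4.81, 5.25 and 4.91 in LPS arrays, and 5.74, 5.23, 5.62 and 5.59 in LPS plus PGE arrays. It rose by 0.69 ± 0.13 with LPS (limma adjusted p = 0.00402) and by a further 0.55 ± 0.13 with PGE (adjusted p = 0.0119), with 1 LPS plus PGE array just below the highest LPS array. Nrg1, the neuregulin gene, was 0.07 ± 0.11 from untreated with LPS and rose by 1.04 ± 0.11 with PGE (limma adjusted p = 7.37e-05). Tgfa rose with PGE against LPS (0.31, adjusted p = 0.0448), a call lost in 10 of 20 alternatives, and Nrg2, named here after its value was seen, rose with LPS plus PGE against untreated (0.36, adjusted p = 0.0487), a call lost in 9 of 20. Rhbdf2, which encodes a partner of the shedding enzyme Adam17, rose with LPS (0.92 ± 0.08, limma adjusted p = 4.86e-06). Adam17 itself rose with LPS (0.24 ± 0.06, limma adjusted p = 0.0134). That call was lost with equal array medians (adjusted p = 0.0875) or without LPS replicate 2 (adjusted p = 0.0576). With PGE against LPS, Adam17 (-0.19 ± 0.06, limma adjusted p = 0.0302), Rhbdf1 (-0.36 ± 0.10, adjusted p = 0.022) and Rhbdf2 (-0.24 ± 0.08, adjusted p = 0.042) fell. The sheddase gene Adam10 and the receptor gene Egfr passed in no comparison. Of 20 genes listed beside Hbegf, 3 rose and 0 fell with LPS (6.55% and 6.69% of all genes), 4 rose and 0 fell with LPS plus PGE against untreated (13.8% and 17.9%), and 4 rose and 3 fell with PGE against LPS (11.9% and 12.9%). The 4 rises against untreated became 9 with equal array medians. Against LPS, the 4 rises became 2 after quantile or cyclic loess normalization and 8 with equal array medians, and the 3 falls became 0 under each of these. Without LPS replicate 2 or LPS plus PGE replicate 1 there were 2 rises and 0 falls, without LPS replicate 3 there were 2 rises and 1 fall, and without LPS plus PGE replicate 2, 3 or 4 there were 3 rises and 1 fall.

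**Figure D4:**
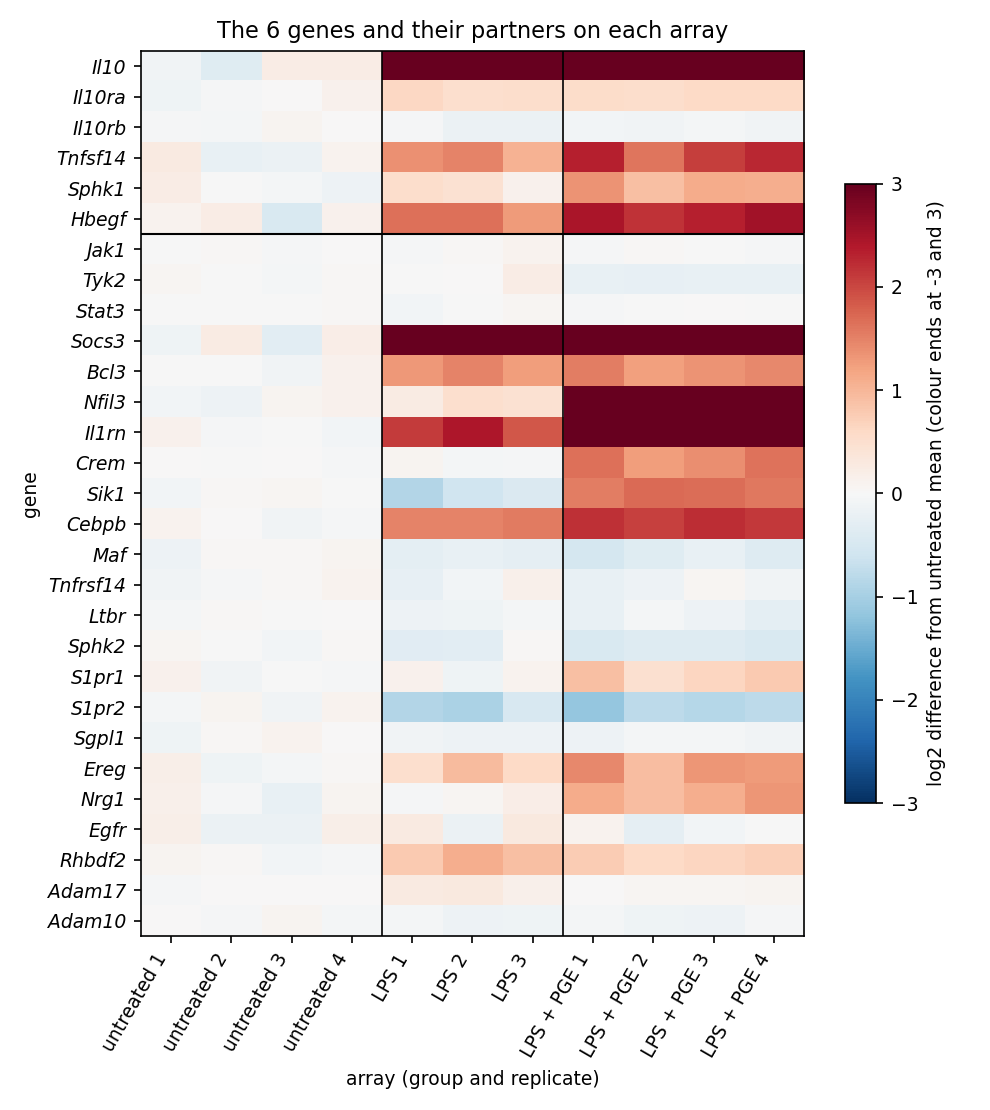
Log2 difference from the untreated mean (colour) for the 6 genes above the line and partner genes below it, on each of the 11 arrays. Il10 and Socs3 are past the red end of the colour scale on every treated array, Nfil3 and Il1rn on every LPS plus PGE array, and Jak1, Stat3 and Il10rb are near 0 throughout.

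Other genes used to describe regulatory macrophages moved both ways with PGE. Il12b, the shared subunit of interleukin-12 and interleukin-23, read 9.33, 10.06 and 9.21 in LPS arrays and 8.23, 7.87, 8.07 and 8.20 in LPS plus PGE arrays. The groups did not overlap, and Il12b fell by 1.44 with PGE (SE 0.18, limma adjusted p = 0.000323), where Il10 rose. It still stood 3.81 ± 0.16 above untreated. Il12a, the other subunit of interleukin-12, passed in no comparison, and Il23a, the subunit specific to interleukin-23, rose by 2.12 ± 0.15 with PGE. Tnf fell by 0.33 with PGE (SE 0.07, limma adjusted p = 0.00924; 0.114 with equal array medians). Il6 rose by 3.68 ± 0.13 with PGE and the angiogenic factor gene Vegfa by 2.20 ± 0.09 (limma adjusted p = 5.09e-09 and 1.84e-08). Il1b, the interleukin-1 beta gene, had the largest rise of this list with LPS (6.87 ± 0.15, limma adjusted p = 1.44e-11). The chemokine gene Ccl1 and the enzyme gene Arg1 passed in no comparison. Of these 14 genes, 7 rose and 0 fell with LPS (6.55% and 6.69% of all genes), 8 rose and 0 fell with LPS plus PGE against untreated (13.8% and 17.9%), and 6 rose and 2 fell with PGE against LPS (11.9% and 12.9%; 8 and 1 with equal array medians).

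Some markers of mast cells and basophils rose with the PGE step. Their mean level was 4.03 to 4.09 in untreated arrays, 4.04 to 4.21 with LPS and 4.42 to 4.53 with LPS plus PGE. Of these 10 markers, 3 rose with PGE against LPS, where 11.9% of all genes rose: Hdc (1.47 ± 0.10), Gata2 (1.23 ± 0.14) and Cma1 (0.37 ± 0.10), named here after their values were seen. Cma1 was low, at 3.21, 3.24 and 3.40 in LPS arrays and 3.43, 3.76, 3.69 and 3.72 in LPS plus PGE arrays. These values lay below the lower quartile of all genes, and whether Cma1 exceeded background was not tested. The 3 rises became 2 after quantile or cyclic loess normalization and 6 with equal array medians. Other marker lists also held rises in this step: 2 of 12 stromal, 2 of 10 T and NK cell, 2 of 8 B cell, 1 of 12 dendritic cell, 1 of 5 erythroid, 1 of 11 macrophage and 0 of 11 neutrophil markers. The other 7 markers of this list (Kit, Fcer1a, Ms4a2, Cpa3, Mcpt8, Tpsb2 and Prss34) did not pass in this step. The part of such cells in the rise of Il10 was not tested.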

How the data were processed

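RNA of 11 samples (4 untreated, 3 LPS, 4 LPS plus PGE) was measured on Affymetrix mouse gene arrays from 250 ng of total RNA; of 12 arrays made, 1 LPS array was left out by the authors. The deposited values are log2 intensities summarised by RMA; the submitters' processing notes name RMA, Affymetrix Power Tools, Partek and R 2.13.1, with no roles, while a build was not given in the sources used here. Raw array files were not used here. Of 35309 probe sets, 21143 had 1 gene symbol in the platform annotation, 1870 several and 12296 none, and the probe set with the highest mean stood for each of 18755 genes. Group means of all 11 arrays were fitted with limma 3.58.1 in R 4.3.3, checked on simulated data, with Benjamini-Hochberg adjustment over all genes.

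The 6 genes and all lists were chosen with earlier results of these data known. Genes to name were the members, up to 3 of the largest rises and falls that passed in each list, and set direct partners. Not every such gene is given in the text, and some named genes lie outside this rule. Alternatives covered normalization, variance, dim genes, probe set choice, replicate block and leaving out each array.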

Additional observations from a re-analysis of the deposited data

Results flagged for a closer look

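In 61 genes of the lists, the 4 untreated and the 4 LPS plus PGE arrays were searched for an array whose distance from its nearest neighbour took up most of the range of its group. Of these 122 sets of 4 arrays, 4 had one; chance gives about 1 in 20.

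Il10 read 11.98 in LPS plus PGE replicate 1, where the other arrays read 11.84 to 11.86. Hbegf read 4.189 in untreated replicate 3, where the others read 4.763 to 4.87. The sphingosine-1-phosphate receptor gene S1pr2 read 8.219 in LPS plus PGE replicate 1, where the others read 8.532 to 8.594. The sphingosine-1-phosphate transporter gene Spns2 read 5.032 in LPS plus PGE replicate 4, where the others read 5.396 to 5.468.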

How the results depend on the processing

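Each of the 18 differences of the 6 genes was recomputed under 21 alternatives, 11 of which left out 1 array, and 368 of 378 values kept their direction and side of the threshold. Sphk1 with LPS passed with genes below the median left out (0.37), with the replicate block (0.34) and without untreated replicate 1 (0.44) or LPS replicate 3 (0.49); the other leave-one-out fits did not pass, and all 11 ranged from 0.29 to 0.49. Tnfsf14 with PGE against LPS ranged from 0.64 to 0.93 when 1 array was left out, and was lost without LPS replicate 3. Il10rb with LPS passed with a trended and robust variance (-0.13), and with equal array medians it stood 0.038 above untreated and 0.20 above LPS under LPS plus PGE. The difference of Il10ra between LPS plus PGE and LPS changed sign with the replicate block (-0.012) and without LPS replicate 2 (leave-one-out range -0.0037 to 0.046). Its highest value over all alternatives was 0.17. The causes were not tested.

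Counts over all genes moved more. For LPS plus PGE against untreated (2587 higher, 3359 lower), higher genes numbered 1564 after quantile normalization, 5747 with equal array medians and 999 with genes below the median left out; lower genes numbered 1724 with equal medians and 1880 after cyclic loess, which called 3897 in all. For LPS plus PGE against LPS (2225 higher, 2416 lower), quantile normalization gave 1899 calls (932 higher, 967 lower), cyclic loess 2173 (1135 higher, 1038 lower) and equal medians 5850 higher and 718 lower. With genes below the lower tertile or the median left out, 1260 and 503 were higher. Leaving out 1 array gave 2945 to 4455 calls and 1412 to 2324 lower genes, both lowest without LPS replicate 3. Equal medians moved the share of higher calls from 43.5% to 76.9% for LPS plus PGE against untreated, from 47.9% to 89.1% against LPS, and from 49.5% to 39.6% for LPS; leaving out genes below the lower tertile or the median gave 32.0% and 21.2% against untreated and 30.8% and 15.04% against LPS.

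Replicate numbers were not taken as pairs: after group means were removed, same-numbered arrays correlated at -0.020 to 0.207 and others at -0.138 to 0.095. Each of 11 arrays correlated best with an array of its own number, a hint from the data and not the design. With the replicate block, 2454, 6124 and 4698 genes passed in the 3 comparisons.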

Other observations

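The order of the arrays within a group was shared by several of the 6 genes. LPS replicate 3 was the lowest LPS array for 5 of 6 genes (not Il10ra), and LPS plus PGE replicate 2 was the lowest of its group for 5 of 6 (not Il10rb). Some gaps were very small. Il10rb read 11.776 in LPS replicate 3 and 11.782 in LPS replicate 2, and Il10 read 11.839 and 11.843 in LPS plus PGE replicates 2 and 3. How often these arrays were lowest over all genes was not counted, so the order cannot be called particular to these genes. After group means were removed, the highest correlations over the 11 arrays were 0.759 for Tnfsf14 and Sphk1 and 0.744 for Il10 and Il10rb. These points share arrays and their processing, and the values are a description only.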
